A study of Homo sapiens with 10 samples.

Results

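Mitotic cell cycle genes were described in NB4 cells, a human acute promyelocytic leukaemia line, from the RNA-seq tables of a study of the LSD1-associated corepressor subunit GSE1. The members were the rows whose symbol is on a list of 50 names (cyclins and CDK1, mitotic kinases, checkpoint, kinetochore, spindle, cytokinesis and chromatid separation genes) and whose biotype is protein-coding, which gave 49 genes of 60603 listed, 19975 of them protein-coding. The rule used names and biotype and no measured value, but the members were chosen with earlier results of these data known. KIF23, a kinesin of the central spindle, is the 1 name with no row under its symbol. Its stable identifier, ENSG00000137807.15, is listed under the symbol AC027237.1 with base means of 3743 and 2316, and this row was left out of every count.

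The libraries were mRNA-seq of 5 groups with 2 libraries each. In the GSE1 knockdown experiment, NB4 cells were infected with lentiviral pLKO.1 puro carrying no insert (EV) or a hairpin against GSE1 (shA1 or shB2) and were harvested 48 h after transduction, 6 libraries in all. In the inhibitor experiment, NB4 cells received 2 µM of the LSD1 inhibitor MC2580 or its solvent DMSO for 24 h, 4 libraries in all. All groups came from this 1 cell line, and EV cells had been through infection like the hairpin cells. The value used here is the base mean, the authors' mean of normalised counts over the libraries of an experiment. It is the same under both hairpin headings in all 60603 rows, as a mean over all libraries of an experiment would be, so control and treated libraries are taken to be pooled in it. No SD, no n and no comparison of hairpin with EV or of MC2580 with DMSO can be had from it, the depth of each library is not known, and replicate numbers do not enter. The base means of GSE1 were 2963 in the knockdown and 4441 in the inhibitor experiment, and a pooled mean cannot check a knockdown.

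Mitosis is driven by CDK1 bound to A- and B-type cyclins, with PLK1 and the Aurora kinases acting at the centrosomes, the kinetochores and the central spindle. The spindle checkpoint holds CDC20 back until every kinetochore is attached, after which the anaphase promoting complex marks securin and cyclin B for destruction and separase cuts cohesin. Many of these genes are transcribed in G2 and M phase, in part through the DREAM and MuvB complexes with FOXM1 and MYBL2, and their transcripts are known to be abundant in dividing leukaemia lines.

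Transcripts of the mitotic genes were abundant in both experiments. All 49 had a base mean above 0, as did 17337 and 17091 of the 19975 protein-coding genes in the knockdown and inhibitor experiments. Of the members, 46 had 500 or more in both, where the medians of protein-coding genes above 0 were 409 and 396. The share of all genes at 500 or more was not counted. To set genes beside each other, each base mean was scaled so that the base means of its table sum to 1000000 and was divided by the coding length of the canonical transcript in kilobases, giving its length-scaled level. Values are given for the knockdown and then the inhibitor experiment, and with no value per library no order or difference between genes was tested. The median length-scaled level of the members was 70.3 in the knockdown experiment, where that of all protein-coding genes above 0 was 7.05. In the inhibitor experiment the medians were 51.2 and 6.41. The members thus stood high among expressed genes on the length-scaled level, at a median percentile of 85.8 and 81.2. On the base mean without division by length the median percentiles were 88.6 and 85.97, with 38 and 32 of 49 members above the 75th percentile of 17337 and 17091 genes. UBE2C, the ubiquitin-conjugating enzyme that starts chains for the anaphase promoting complex, was the member below the middle of the distribution in both tables, at percentiles of 49.7 and 47.4.

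**Figure D1:**
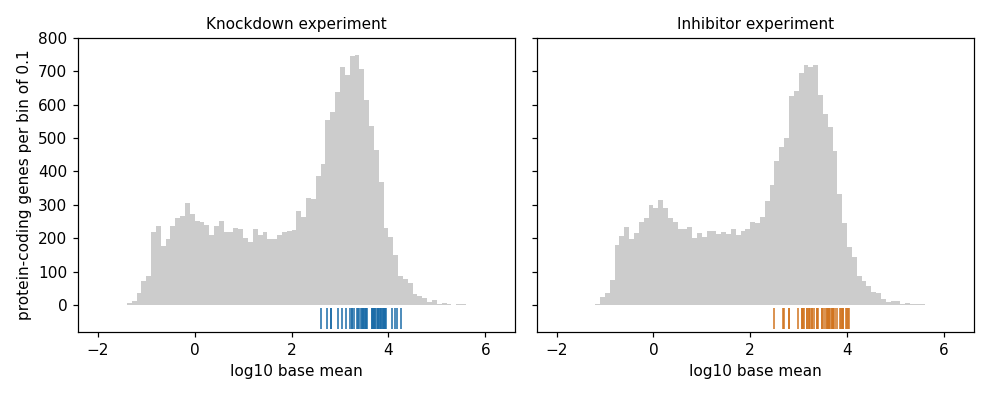
Grey bars count protein-coding genes with a base mean above 0 by log10 base mean (x axis) in the knockdown experiment (left) and the inhibitor experiment (right), and each coloured tick under the bars is 1 of the 49 mitotic genes. The ticks lie in the upper hump of both distributions, and the member with the lowest base mean is UBE2C at 396 and 307.

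Together the members held 0.615% of the sum of all base means in the knockdown experiment (summed base means of 249377 of 40543129.6). In the inhibitor experiment they held 0.469% (193413 of 41201112). In bulk RNA a smaller share of cells in G2 and M phase and less mitotic RNA per cell cannot be told apart. Base means of separately normalised tables carry no error, so the gap between these shares was not tested. The order of the genes was close to the same in both tables. Over the 49 members, the log2 length-scaled levels of the tables had a Pearson r of 0.980 and a Spearman rho of 0.968, beside an r of 0.980 over the 10916 protein-coding genes with base means of 50 or more in both. These points share cell line, gene length and the authors' processing.

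The promoters of the members were read for letters known from G2 and M phase genes. The list used no sequence, but many of its names are genes of that kind, so the letters are not independent of it. RefSeq's promoter table (GRCh38.p14, 250 bases before to 50 bases after an annotated start) matched 40 of 49 members with 50 promoters, and 6 members had more than 1, up to 4, some of which overlap. BIRC5, BUB3, TPX2, AURKA, RACGAP1, FOXM1, UBE2C, TTK and CDCA2 had no entry. The CHR (cell cycle genes homology region) was searched only as TTTGAA or TTCGAA on either strand. These words were present in 34 of 50 promoters, 68.0%, and in 13.7% of the 21036 promoters of protein-coding genes. CCAAT on either strand, the letters bound by NF-Y, was present in 78.0% beside 34.7%. CHR and CCAAT stood together in 58.0% beside 5.44%. A CCAAT beginning within 50 bases before a CHR was found in 20 of 50 member promoters (40.0%) and in 1.27% of all, and in 1 member promoter a CCAAT and a CHR shared letters. For E2F the words TTTGGCGC, TTTCCCGC, TTTGCCGC and TTTCGCGC on either strand gave 8% beside 4.05%. Both CHR and CCAAT letters were therefore more frequent in the member promoters than in all promoters, and the E2F words were rare in either.

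Counted by gene, 31 of 40 members (77.5%) had a CHR in any listed promoter, beside 17.4% of 14906 genes. The CHR lay close to the start. Of 46 CHR matches in member promoters, 33 (71.7%) began within 50 bases of it, whereas 25.9% of the 3287 matches in all promoters did. Matches were counted in each promoter, so a site in overlapping promoters could enter again, as the CDC25C site at -30 and 43 did. No CHR letters were found for AURKB, CCNA2, CCNB1, CENPE, KIF20A, KIF2C, NEK2, PTTG1 and SPC24, which says only that these words are not in the windows read. In the knockdown experiment the median length-scaled level was 50.2 in the 31 members with these words and 74.0 in the 9 without them. In the inhibitor experiment the medians were 30.4 and 61.6. Other forms of the CHR were not searched, so the 9 are not shown to lack one. A match is a description of letters and was not tested for binding or for a part in these levels.

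Promoters are printed for members of different role and level, so that the place of the letters can be compared. Each runs 5′ to 3′ on the strand of the gene, with CHR and CCAAT letters (or their reverse complements TTCAAA and ATTGG) in capitals. The B-type cyclin gene CCNB2 (chr15:59104896-59105195, plus strand) has CCAAT letters at 4 places with the CHR after the last, and those of the kinase PLK1 (chr16:23678639-23678938, plus strand) stand once each.

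CCNB2: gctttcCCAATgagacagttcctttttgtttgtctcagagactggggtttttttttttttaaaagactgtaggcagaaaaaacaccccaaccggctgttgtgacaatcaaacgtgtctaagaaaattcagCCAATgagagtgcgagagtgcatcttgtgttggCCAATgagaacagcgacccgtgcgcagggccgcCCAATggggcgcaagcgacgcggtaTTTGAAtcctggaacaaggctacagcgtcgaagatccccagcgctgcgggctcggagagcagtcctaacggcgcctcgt
PLK1: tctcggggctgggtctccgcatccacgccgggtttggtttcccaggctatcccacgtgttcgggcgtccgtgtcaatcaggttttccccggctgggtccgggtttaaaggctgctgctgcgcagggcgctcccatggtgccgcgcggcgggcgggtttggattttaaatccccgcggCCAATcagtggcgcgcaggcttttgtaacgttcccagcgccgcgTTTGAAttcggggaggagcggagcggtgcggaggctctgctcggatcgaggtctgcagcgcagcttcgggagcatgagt

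The CDK regulatory subunit CKS2 (chr9:89310945-89311244, plus strand), highest in length-scaled level, and the chromokinesin KIF4A (chrX:70289854-70290153, plus strand), with the highest ratio between the experiments, both have a CHR between CCAAT and the start.

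CKS2: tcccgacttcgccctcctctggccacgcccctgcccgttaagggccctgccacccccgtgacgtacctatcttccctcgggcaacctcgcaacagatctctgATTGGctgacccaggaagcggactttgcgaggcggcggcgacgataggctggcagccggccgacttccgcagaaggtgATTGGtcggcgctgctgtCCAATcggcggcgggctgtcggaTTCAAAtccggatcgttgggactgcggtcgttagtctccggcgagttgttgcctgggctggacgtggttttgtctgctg
KIF4A: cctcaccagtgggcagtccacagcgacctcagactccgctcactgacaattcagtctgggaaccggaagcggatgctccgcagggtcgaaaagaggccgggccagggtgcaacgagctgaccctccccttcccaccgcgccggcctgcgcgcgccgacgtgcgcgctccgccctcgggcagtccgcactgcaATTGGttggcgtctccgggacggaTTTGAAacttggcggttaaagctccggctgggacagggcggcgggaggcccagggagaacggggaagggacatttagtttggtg

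In the promoter of the checkpoint kinase BUB1 (chr2:110678014-110678313, minus strand) the word is TTCGAA and lies at the start itself. The promoter of the kinetochore motor CENPE (chr4:103198294-103198593, minus strand) holds neither of the searched CHR words nor CCAAT letters and is printed for comparison. It does hold TTTAAA, which was not among the words searched.

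BUB1: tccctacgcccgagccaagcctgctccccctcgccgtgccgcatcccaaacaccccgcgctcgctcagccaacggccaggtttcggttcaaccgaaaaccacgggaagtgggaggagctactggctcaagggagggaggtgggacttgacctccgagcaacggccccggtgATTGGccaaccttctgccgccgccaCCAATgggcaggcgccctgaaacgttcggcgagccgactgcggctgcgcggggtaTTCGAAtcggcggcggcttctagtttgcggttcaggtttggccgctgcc
CENPE: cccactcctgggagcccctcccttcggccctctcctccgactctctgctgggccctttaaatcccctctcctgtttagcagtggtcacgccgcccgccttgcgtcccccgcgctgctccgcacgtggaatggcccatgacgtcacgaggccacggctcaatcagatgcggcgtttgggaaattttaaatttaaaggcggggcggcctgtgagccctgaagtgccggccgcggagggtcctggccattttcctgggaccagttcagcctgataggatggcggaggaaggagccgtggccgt

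The CHR of CCNB2, PLK1 and CKS2 began 29 bases before the start in each, counted so that the start is position 0, and that of KIF4A began 34 bases before it. The nearest CCAAT upstream began 54, 73, 52 and 58 bases before the start in CCNB2, PLK1, CKS2 and KIF4A.

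**Figure D2:**
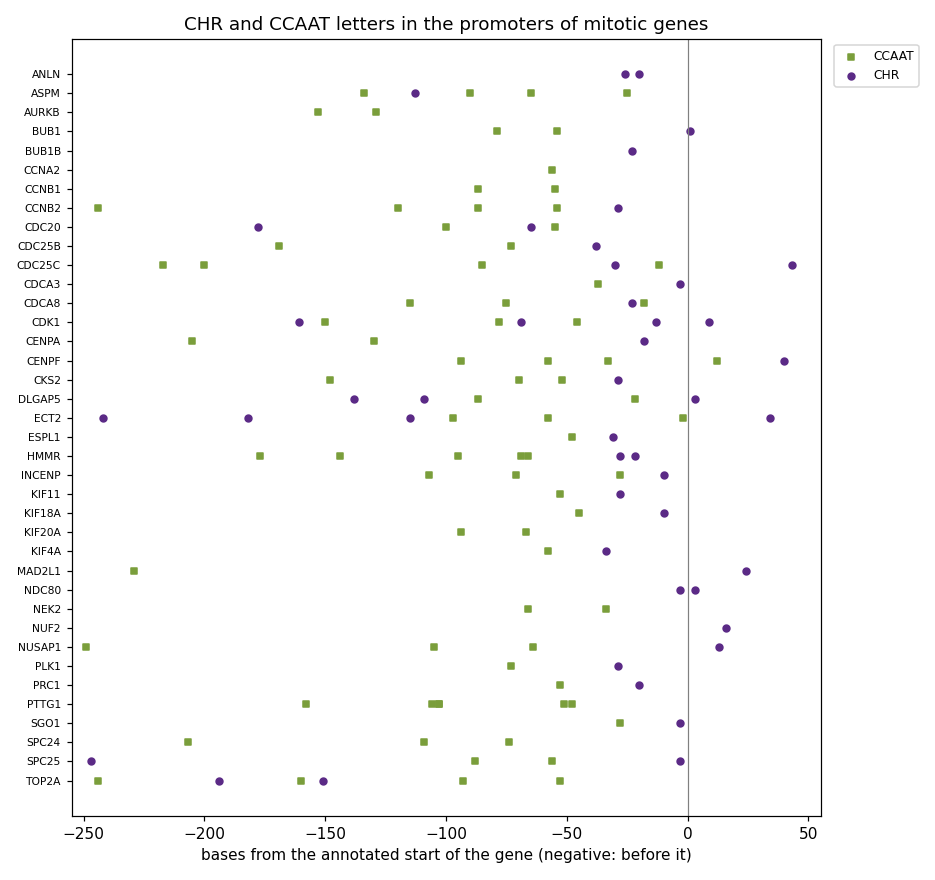
Each row is a member with at least 1 match, the x axis gives the first base of each match in bases from the annotated start (0, grey line), green squares are CCAAT and purple circles are CHR letters, and genes with several promoters show the matches of each. Circles gather near the start, where 33 of 46 lie within 50 bases, and squares lie mostly before them. A site in overlapping promoters of a gene is drawn and counted for each promoter.

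Within the cyclin-CDK core, CKS2 stood apart. CKS2 (ENSG00000123975.5, chr9:89311195-89316703, plus strand in GENCODE 44), the small subunit that docks CDK1 to phosphorylated substrates, had base means of 5855 in the knockdown and 7821 in the inhibitor experiment. Its coding sequence is 237 bases long, and its length-scaled levels of 609 and 801 were the highest of the members in both. CCNB1, the main mitotic B-type cyclin, followed in this group with base means of 8693 and 7098 and length-scaled levels of 165 and 133. CCNB2, the B-type cyclin of the Golgi, had base means of 4850.4 and 3739, with length-scaled levels of 100.2 and 76.0. CCNA2, the cyclin of S phase and mitotic entry, had base means of 5262 and 4772, with length-scaled levels of 100.1 and 89.4. CDK1, the kinase they activate, had base means of 3416 and 2477 and length-scaled levels of 94.6 and 67.5. CCNB1 was 1.65-fold and 1.74-fold above CCNB2 by coding length, and 2.21-fold and 2.34-fold by the longest transcript. Without a value per library, neighbours as close as CCNB2, CCNA2 and CDK1 cannot be put in an order.

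Genes of mitotic entry were among the most abundant. PLK1, the polo-like kinase that acts from entry to cytokinesis, had base means of 12035 and 10954 and length-scaled levels of 164 and 147. TPX2, which activates AURKA on spindle microtubules, had base means of 13547 and 10322, with length-scaled levels of 149 and 112. AURKA itself, the centrosomal Aurora kinase, had base means of 6010.1 and 4397, with length-scaled levels of 123 and 88.3. All 3 lay above the median of the members in both tables. The CDK1-activating phosphatases differed from each other, with CDC25B at length-scaled levels of 117 and 86.8 and CDC25C at 11.3 and 8.43. FOXM1, the transcription factor of the G2 and M programme, had length-scaled levels of 88.5 and 85.8. CDCA3, a substrate adaptor that acts on the entry inhibitor WEE1, had length-scaled levels of 74.3 and 71.2, and NEK2, a kinase that separates centrosomes, had length-scaled levels of 30.1 and 17.8. The lower members of this group, CDC25C and NEK2, had base means of 650.5 and 1627 in the knockdown experiment and 493 and 979 in the inhibitor experiment.

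By coding length, the spindle checkpoint genes fell into a higher pair and a lower set. BUB3, the propeller protein that carries BUB1 and BUBR1 to kinetochores, had base means of 8907 and 8166, and MAD2L1, which binds and inhibits CDC20, had base means of 3208 and 3051. Their length-scaled levels were 223 and 201 for BUB3 and 129 and 120.4 for MAD2L1. This place depends on the length used. By the longest annotated transcript, 7703 and 5227 bases, BUB3 was at 28.5 and 25.7 and MAD2L1 at 15.1 and 14.2, at ranks 27 and 38 of 49 in the knockdown experiment in place of 3 and 10. BUB1, the kinase that marks centromeric histone H2A, had base means of 6585 and 3830.3 and length-scaled levels of 49.9 and 28.6. BUB1B, which encodes BUBR1, had base means of 4713 and 3311, with length-scaled levels of 36.9 and 25.5. By the longest transcript BUB1 was at 43.2 and 24.7 and BUB1B at 31.7 and 21.9. In the knockdown experiment both then stood above BUB3 and MAD2L1, and in the inhibitor experiment between them. TTK, the kinase MPS1 that starts the signal, was lowest with base means of 1746 and 1215 and length-scaled levels of 16.8 and 11.5. CDC20, the target of the checkpoint and activator of the anaphase promoting complex, had base means of 8529 and 7491, with length-scaled levels of 141 and 121.

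At the kinetochore and centromere, levels were lower than in the entry genes, with a group median of 31.6 and 25.6 on the length-scaled level against 103 and 86.3. The Ndc80 complex, the main microtubule coupler, has NDC80, NUF2, SPC24 and SPC25 as subunits in equal number. NDC80 had base means of 2198 and 1475, and NUF2, its partner in the microtubule-binding end of the rod, had base means of 1785 and 1612. SPC24 and SPC25, which anchor the rod, had base means of 1091 and 1499 and 549 and 626. From the highest subunit to the lowest, the length-scaled level of the 4 differed 2.26-fold in the knockdown and 3.31-fold in the inhibitor experiment, with SPC24 highest in both at 45.5 and 61.6. By the longest transcript the folds were 2.53 and 1.76, and NDC80 was highest in the knockdown experiment. CENPA, the histone H3 variant that marks centromeres, had base means of 1329 and 1183 and length-scaled levels of 78.0 and 68.4. CENPF, a large protein of the outer kinetochore, had base means of 15260.3 and 9844, with length-scaled levels of 40.3 and 25.6. CENPE, the motor that brings chromosomes to the spindle equator, had base means of 2872 and 1904 over 8103 coding bases, with length-scaled levels of 8.74 and 5.70, near the bottom of the members.

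The chromosomal passenger complex corrects wrong attachments and guides cytokinesis. Its kinase AURKB had base means of 3121 in the knockdown and 4105 in the inhibitor experiment, the scaffold INCENP 7849.7 and 5747, BIRC5 (survivin) 5221 and 5140.4, and CDCA8 (borealin) 4794 and 3978. BIRC5 had the highest length-scaled level of the complex, 302 and 293, and INCENP the lowest, 70.3 and 50.7. The span of 4.30-fold and 5.78-fold between them by coding length was 1.30-fold and 2.34-fold over the complex by the longest transcript, where AURKB was highest. The order within this complex thus depended on the length used, by which AURKB and CDCA8 also changed places. The coding sequence of BIRC5 has 426 bases and its longest transcript 2711.

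Motors and microtubule factors of the spindle ranged widely. By coding length NUSAP1, which bundles microtubules near chromosomes, and the depolymerising kinesin KIF2C led with levels of 83.6 and 73.9 and of 74.0 and 58.1. By the longest transcript NUSAP1 was at 35.0 and 31.0, below KIF2C at 54.4 and 42.8. In the knockdown experiment it was then also below KIF11, at 36.9. KIF11, the tetrameric kinesin that pushes spindle poles apart, had base means of 7685 and 5135, with length-scaled levels of 59.8 and 39.3. HMMR, a spindle pole adaptor, had length-scaled levels of 34.1 and 18.6, KIF4A 30.8 and 13.9, and DLGAP5, which stabilises kinetochore fibres, 26.1 and 16.3. KIF18A, which dampens chromosome oscillation, had base means of 905 and 621, with length-scaled levels of 8.28 and 5.60. By coding length the lowest level of all members was that of ASPM, a very large spindle pole protein of 10431 coding bases, with base means of 3428 and 2386 and levels of 8.11 and 5.55. The highest member was 75.2-fold above the lowest in the knockdown and 144-fold in the inhibitor experiment. By the longest transcript SGO1 was lowest in both, at 5.35 and 3.72, ASPM was at ranks 46 and 47 of 49, and the highest member, CKS2 in both, was 43.8-fold and 82.8-fold above the lowest.

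**Figure D3:**
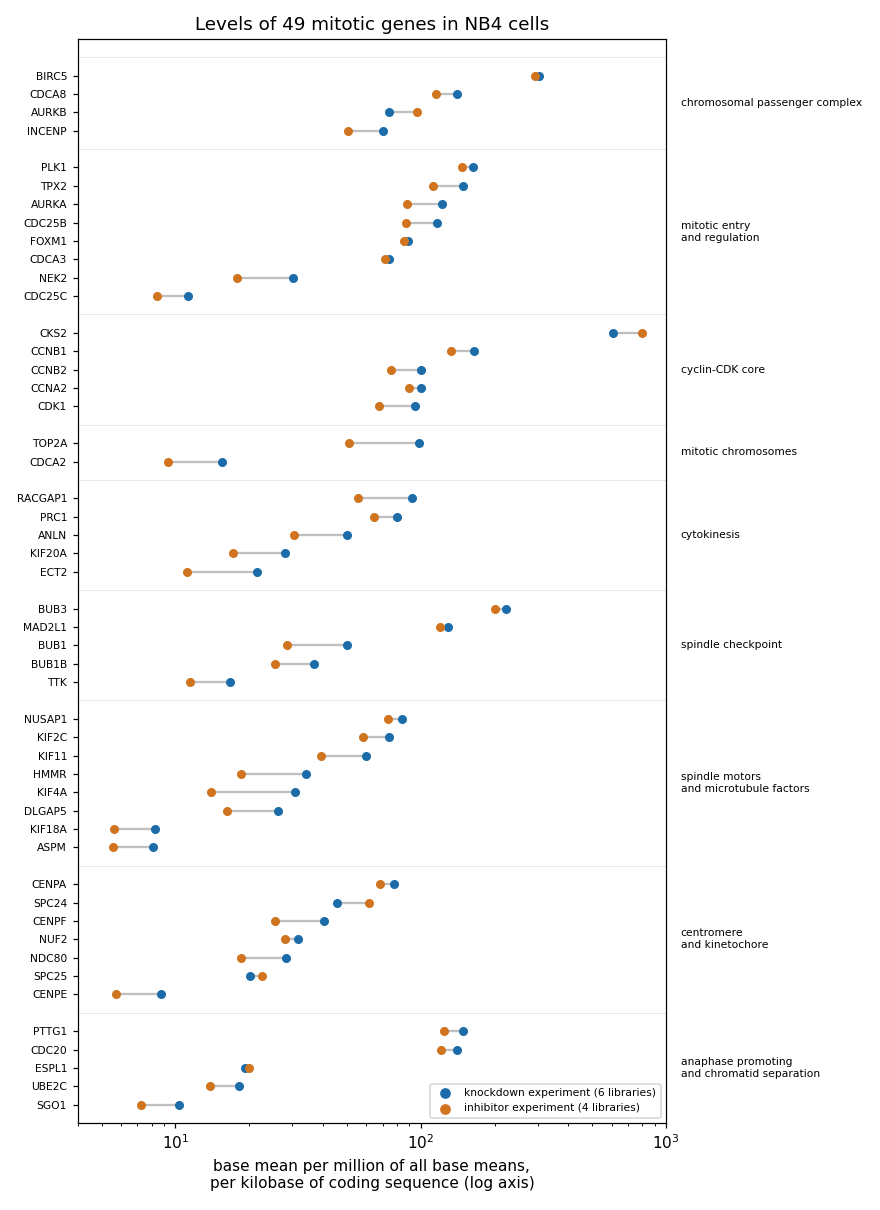
Each row is a mitotic gene, grouped by role, and the x axis (log scale) is its length-scaled level (base mean scaled to a table sum of 1000000, per kilobase of coding sequence) in the knockdown (blue) and inhibitor (orange) experiments, which the authors normalised separately. Points are pooled means with no error bar. CKS2 lies farthest right, at 609 and 801, and ASPM farthest left, at 8.11 and 5.55.

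Cytokinesis genes included RACGAP1, the GTPase-activating subunit of centralspindlin, with base means of 7112 and 4326 and length-scaled levels of 92.5 and 55.4. Its centralspindlin partner KIF23, read from the row AC027237.1, had length-scaled levels of 31.6 and 19.2, below RACGAP1 in both tables. PRC1, which cross-links antiparallel microtubules, had length-scaled levels of 80.3 and 64.8, and ANLN, which links actin, myosin and septins at the furrow, had length-scaled levels of 50.2 and 30.4. KIF20A, a kinesin of the midzone, had length-scaled levels of 28.1 and 17.2, and the RhoA exchange factor ECT2 had length-scaled levels of 21.4 and 11.2. On mitotic chromosomes, TOP2A (ENSG00000131747.15, chr17:40388525-40417896, minus strand), the topoisomerase that untangles sister DNA, had base means of 18391 and 9689. Its length-scaled levels were 98.8 and 51.2. CDCA2, a phosphatase subunit of anaphase chromatin, had length-scaled levels of 15.5 and 9.36.

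Among the genes of chromatid separation, PTTG1 (securin, the inhibitor of separase) had base means of 3641 and 3101 and length-scaled levels of 148 and 124. ESPL1, separase itself, had base means of 4978 and 5223, with length-scaled levels of 19.3 and 19.9, so on this scale the inhibitor of the pair stood above the protease in both tables. SGO1, the protector of centromeric cohesin, had base means of 665 and 471, with length-scaled levels of 10.4 and 7.23. UBE2C had length-scaled levels of 18.2 and 13.9.

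Paralogs of the members, fixed as 16 genes, were set beside them by coding length. CKS1B, the paralog of CKS2, had length-scaled levels of 160.0 and 158, below CKS2. TOP2B, the paralog of TOP2A, had length-scaled levels of 68.5 and 51.7, below TOP2A in the knockdown experiment and about level with it in the inhibitor experiment. CDK2, the S-phase kinase, had length-scaled levels of 96.1 and 119.9, above CDK1 in the inhibitor experiment and about level with it in the knockdown experiment. CCNA1, the A-type cyclin of testis and myeloid leukaemia, had length-scaled levels of 56.2 and 36.2, below CCNA2. CDC25A had length-scaled levels of 81.7 and 69.7, between CDC25B and CDC25C. KIF18B had length-scaled levels of 38.6 and 41.5, above KIF18A, and KIF2A had length-scaled levels of 39.7 and 26.9, below KIF2C. PLK4, the kinase of centriole duplication, had length-scaled levels of 18.9 and 13.6, PLK3 4.49 and 4.00, and SGO2 11.3 and 6.44. By the longest transcript CDK2, at 33.1, was below CDK1 (43.3) in the knockdown experiment and above it in the inhibitor experiment (41.3 and 30.9), and TOP2B was below TOP2A in both. The places of CKS1B, CCNA1, CDC25A, KIF18B and KIF2A relative to the members named with them were the same by either length. AURKC, CCNB3, KIF4B, PLK2 and PTTG2 had base means between 0.542 and 27.1 in the knockdown experiment, and KIF2B was listed at 0 in the inhibitor experiment with 0.499 in the other. Pseudogenes named after 11 members had 17 rows, none of which reached more than 0.918% of its member's base mean in the knockdown or 2.01% in the inhibitor experiment. The authors quantified reads with RSEM, which divides reads shared by near-identical copies by estimation, and the values of these members are uncertain to that extent.

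The 84 other mitotic genes of a list outside the members (inner kinetochore, anaphase promoting complex, condensin and MuvB genes among them) were all found. Their median base mean was 2381 in the knockdown and 1987 in the inhibitor experiment, beside 4618 and 3739 for the members. Their median percentile was 77.9 and 75.6, and 47 and 43 of them were above the 75th percentile. The highest length-scaled level among them was that of ZWINT, a kinetochore protein, in the knockdown experiment (346) and that of CDCA5 (sororin, a guard of cohesin) in the inhibitor experiment (377). MYBL2, the MYB factor that joins MuvB in G2, had length-scaled levels of 305 and 312. This difference from the members was not tested.

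Set side by side, the base means of the 49 members took a larger share of the knockdown table than of the inhibitor table. After division by the sum of each table, the log2 ratio of the knockdown over the inhibitor experiment had a median of 0.42 over the 49 members and 0.09 over the 10916 protein-coding genes with base means of 50 or more, whose 10th to 90th percentiles ran from -0.45 to 0.68. Of the members, 41 were above the median of all and 11 above the 90th percentile. The 84 other mitotic genes had a smaller median log2 ratio of 0.22, and 32 of them were below the median of all. The tables were normalised separately, and the experiments differ in vector, treatment, time and handling, which cannot be told apart. With no value per library the difference has no test.

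KIF4A (ENSG00000090889.12, chrX:70290104-70420886, plus strand), a chromokinesin of chromosome arms and the central spindle, had the highest log2 ratio, 1.15, with base means of 4618 and 2121. TOP2A followed with 0.95, and ECT2 with 0.94 from base means of 2383 and 1260.0. The lowest log2 ratios were those of SPC24 (-0.43), CKS2 (-0.39) and AURKB (-0.37). With SPC25 and ESPL1 these were the 5 members with a ratio below 0, and 8 were below 0 with the tables scaled by the median ratio. This order changed against genes in the same of 5 bins of coding length and of GC content, a comparison chosen after the values were seen. KIF4A was still highest there at a log2 ratio of 0.79 above its bins, but NEK2 (0.54), CDC25B (0.54) and HMMR (0.52) came before TOP2A (0.50) and ECT2 (0.49). The lowest were CKS2 (-0.34), AURKB (-0.31) and ESPL1 (-0.27), with SPC24 at -0.22. NEK2, CDC25B, HMMR and ESPL1 were named here after their values were seen. By role, with the number of genes in parentheses, the median unadjusted log2 ratio was 0.84 in the genes of mitotic chromosomes (2), 0.73 in cytokinesis (5), 0.59 in spindle motors (8), 0.53 in the checkpoint (5), 0.42 in mitotic entry (8), 0.32 in the cyclin-CDK core (5), 0.25 in chromatid separation (5), 0.19 in the kinetochore (7) and 0.17 in the passenger complex (4).

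The ratio moved with the length and base composition of genes at large. Over 10878 protein-coding genes it had a Spearman rho of 0.36 with coding length and of -0.38 with the GC content of the transcript, and over the 49 members 0.67 and -0.47. With genes cut into 5 equal bins of coding length, from the shortest bin to the longest the median log2 ratio went from -0.13 to 0.34, and that of the members from 0.07 (8 genes) to 0.66 (17 genes). The members' coding sequences were longer than those of all genes, with medians of 1809 and 1392 bases, and lower in GC, 43.1% and 48.4%. Against genes in the same bin of length and the same of 5 bins of GC content, an alternative chosen after the values were seen, the members' median log2 ratio was 0.19, with 40 of 49 above 0.

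**Figure D4:**
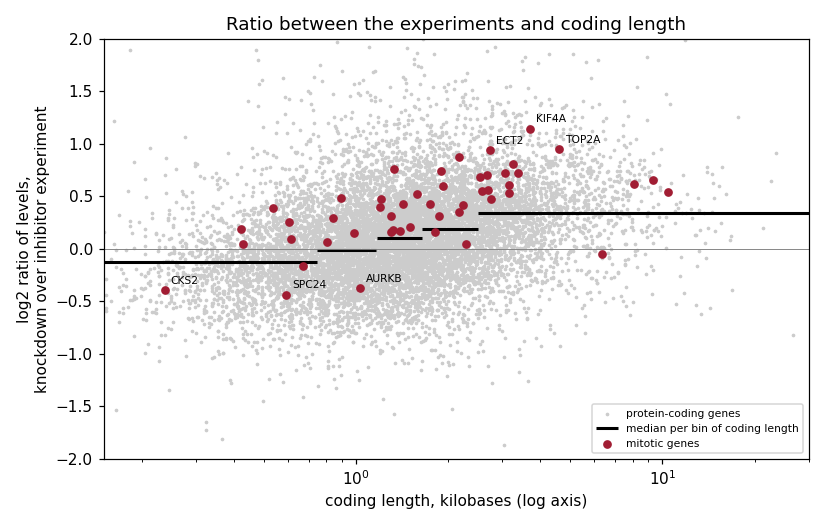
The y axis is the log2 ratio of the level in the knockdown over that in the inhibitor experiment, cut at -2 and 2, and the x axis (log scale) is coding length in kilobases, with all protein-coding genes in grey, the 49 mitotic genes in red and the median of all genes in each of 5 bins of coding length as a black line. The lines climb from -0.13 to 0.34, and short mitotic genes such as CKS2 at -0.39 lie below long ones such as KIF4A at 1.15.

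The cell type was read from marker genes. MPO, the myeloperoxidase of promyelocytes, had the highest base mean of all genes in both tables, 506765 and 824818, and CD33, a surface antigen of myeloid precursors, had 2860.1 and 2728. ELANE, neutrophil elastase, was near 0 at 1.10 and 3.87, which goes against its place among promyelocyte markers. Summed, the 7 promyelocytic markers had a scaled base mean (table sum 1000000) of 12814 in the knockdown and 20454 in the inhibitor experiment, with 5 of 7 higher in the latter. MPO alone was 1.25% and 2.00% of all base means, so it moved against the share of the mitotic genes, and leaving it out gave shares of 0.623% and 0.479%. Erythroid, B cell and fibroblast markers were low, as were CD3E and CD3G of the T cell list. Of the erythroid genes, 2 were at 0 in both tables. Summed scaled base means were at most 22.2 for any of these lists, the T cell list included. The epithelial list, led by KRT18 (906 and 668), summed to 36.7 and 29.5 on the same scale. CD3D, a chain of the T cell receptor complex, had base means of 866 and 869. These were above the medians of protein-coding genes above 0, which were 409 and 396. Its partner CD3E was near 0 at 1.55 and 2.98.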

How the data were processed

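Values came from mRNA-seq of NB4 cells, 10 libraries in 5 groups. Per the submitters' processing notes, the tools were bcl2fastq 2, FastQC 0.11.5, STAR 2.7, RSEM and DESeq2 and the build hg38. The authors deposited 1 table per experiment, whose usable column, the base mean, is a signal: the mean of normalised counts over the libraries of that experiment. Library depths are not given in the tables. The remaining 10 and 5 columns hold the authors' own comparisons (log2 fold changes, their errors, test statistics, p-values and adjusted p-values) of each hairpin with EV and of MC2580 with DMSO. They were not used here, so no knockdown or inhibitor effect is reported. No column holds a single library, so samples entered only through these pooled means and no test across libraries was run.

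Base means were scaled to a sum of 1000000 per table and divided by the coding length of the canonical transcript in GENCODE 44, which held 60306 of 60603 identifiers and all 49 members. Percentiles were taken among protein-coding genes above 0, and ratios between tables over those with a base mean of 50 or more in both. The tables were normalised separately. Promoter words were searched on both strands in RefSeq promoters of 300 bases. Calculations used Python 3.11.15, numpy 2.4.6, pandas 2.3.3 and matplotlib 3.10.9. The word search was tested on simulated sequences, and the percentile on lists drawn at random from the knockdown base means. Genes were named by rule: every member by role, the 5 highest and 5 lowest by length-scaled level, the 3 highest and 3 lowest ratios, and listed paralogs, with the highest of the other mitotic genes and a few markers named after their values were seen. The members and lists were chosen with earlier results of these data known. Alternatives covered the denominator, the filter on low values, the length (coding or longest annotated transcript), the scaling between tables and the promoter word and window.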

Additional observations from a re-analysis of the deposited data

How the results depend on the processing

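The share of the mitotic genes in all base means was 0.625% and 0.478% in the knockdown and inhibitor experiments over protein-coding genes alone, and 0.623% and 0.479% without MPO. Their median percentile was 84.4 and 80.9 among genes with a base mean of 10 or more, and 85.8 and 81.2 per kilobase of coding sequence. The median log2 ratio between the experiments was 0.33 with tables scaled by the median ratio, 0.40 with no scaling, 0.42 over members with base means of 500 or more, and 0.19 against genes in the same of 5 bins of length and of GC content, so its sign was the same and its size was not. The share of promoters with a CHR was 62.0% for TTTGAA alone (beside 12.4% of all) and 62.0% in a window of 150 bases before the start (beside 8.06%). By the longest transcript CKS2 stayed at rank 1 in both tables, while BIRC5 went from 2 to 16 and 11 BUB3 from 3 to 27 and 22, ASPM from 49 to 46 and 47, and SGO1 from 46 to 49 in both. The alternatives without MPO, by length and GC content and by gene in place of promoter (77.5%) were chosen after seeing the data. The causes of these shifts were not tested. No paired analysis was possible because the tables hold no column for a single replicate, and for the same reason no replicate could be left out.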
